A study of Mus musculus with 4 samples.

Results

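The CXC chemokines described here are 10 of the 55357 genes in the deposited matrices, taken by symbol: Cxcl1, Cxcl2, Cxcl3, Cxcl5, Pf4, Ppbp, Cxcl9, Cxcl10, Cxcl12 and Cxcl14. They were measured by droplet single-cell RNA sequencing, which counts unique molecular identifiers (UMIs), in the ascending aorta of wild-type male mice. All mice started at 3 weeks of age on BAPN, an inhibitor of the enzymes that cross-link collagen and elastin, at 1 g/kg per day in drinking water for 4 weeks. The AD group (2 libraries) had this dissection model alone. The AD_ABR group (2 libraries) also received paquinimod, a compound that binds S100A9, at 10 mg/kg per day by gavage. There is no group without BAPN. How many mice went into a library is not given in the sources used here, so p-values measure the spread between these libraries, which may be technical.

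CXC chemokines are small secreted proteins that guide leukocytes along gradients. Cxcl1, Cxcl2, Cxcl3, Cxcl5 and Ppbp carry the ELR motif and draw neutrophils through the receptor Cxcr2. NF-kB drives transcription of Cxcl1, Cxcl2, Cxcl3 and Cxcl5 after interleukin-1 or tumour necrosis factor. Pf4 is the classic platelet chemokine and is also made by macrophages. Cxcl9 and Cxcl10 are induced by interferon and draw T cells through Cxcr3, whereas Cxcl12 is made constitutively by stromal cells and acts on Cxcr4.

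On GRCm38, 8 of the 10 genes lie on chromosome 5. Cxcl5, Ppbp, Pf4, Cxcl3, Cxcl1 and Cxcl2 lie on the plus strand, from the start of Cxcl5 at 90759360 to the end of Cxcl2 at 90905938, and Cxcl9 (92321347 to 92328079) and Cxcl10 (92346638 to 92348889) on the minus strand. Cxcl12 lies on chromosome 6 (117168535 to 117181367, plus strand) and Cxcl14 on chromosome 13 (56288643 to 56296551, minus strand).

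RefSeq promoter windows (GRCm38.p6, 250 bases before to 50 after the start site) matched 9 of the 10 genes, all but Cxcl5. Stretches of 4 are shown because they are the member windows that hold the NF-kB consensus. Capitals mark matches to that consensus and, in Cxcl10, also to a pair of GAAA copies set 2 bases apart, as in interferon-response elements. The 4 stretches are chr5:90891165-90891244 (plus strand), chr5:90903789-90903868 (plus), chr5:90786011-90786090 (plus) and chr5:92348980-92349109 (minus).
Cxcl1: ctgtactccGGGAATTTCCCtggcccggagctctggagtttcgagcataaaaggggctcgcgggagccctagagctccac
Cxcl2: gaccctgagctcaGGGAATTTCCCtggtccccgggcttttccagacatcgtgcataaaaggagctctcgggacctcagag
Cxcl3: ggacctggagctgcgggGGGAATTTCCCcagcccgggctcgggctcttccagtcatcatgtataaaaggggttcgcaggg
Cxcl10: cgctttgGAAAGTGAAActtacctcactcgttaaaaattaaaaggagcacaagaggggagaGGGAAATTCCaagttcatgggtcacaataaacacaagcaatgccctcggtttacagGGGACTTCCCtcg
The string GGGAATTTCC, the consensus match in the Cxcl1 window, searched on both strands and chosen after these promoters were read, begins 71, 97 and 73 bases before the start of Cxcl1, Cxcl2 and Cxcl3. It occurs in 29 of 32851 promoter windows (0.0883%). The broader NF-kB consensus, which includes that string and can match at overlapping positions, occurs in 4.51% of windows and in 4 of the 9 chemokine windows. The GAAA pair, searched on both strands, occurs in 3.44% of windows and in 2 of the 9, Cxcl10 and Cxcl14. These matches describe letters in the windows and do not show binding.

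Each library held 9230 to 11161 barcodes, of which 8451 to 9872 cells were kept, with a median of 5268 (AD replicate 1) to 9452 UMIs per cell. Pairs of libraries shared 22 to 38 barcodes. Cells were clustered without the CXC chemokine genes and named from marker lists, with the ending -like. All 9 smooth muscle, 10 fibroblast and 8 endothelial markers of the wall were detected in every library. Cell makeup differed between the groups: neutrophil-like cells numbered 1634 and 232 for AD against 21 and 10 in AD_ABR, and smooth muscle-like cells 947 and 2199 against 3688 and 2919. Fewer cells of a type and less RNA per cell cannot be told apart in a level summed over all cells, so the chemokines were compared within classes. Levels are in CPM, a gene's UMIs scaled by the summed UMIs of the class. Folds and adjusted p-values come from edgeR's quasi-likelihood test on summed UMIs with Benjamini-Hochberg adjustment over all genes tested, 2 libraries against 2.

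**Figure D1:**
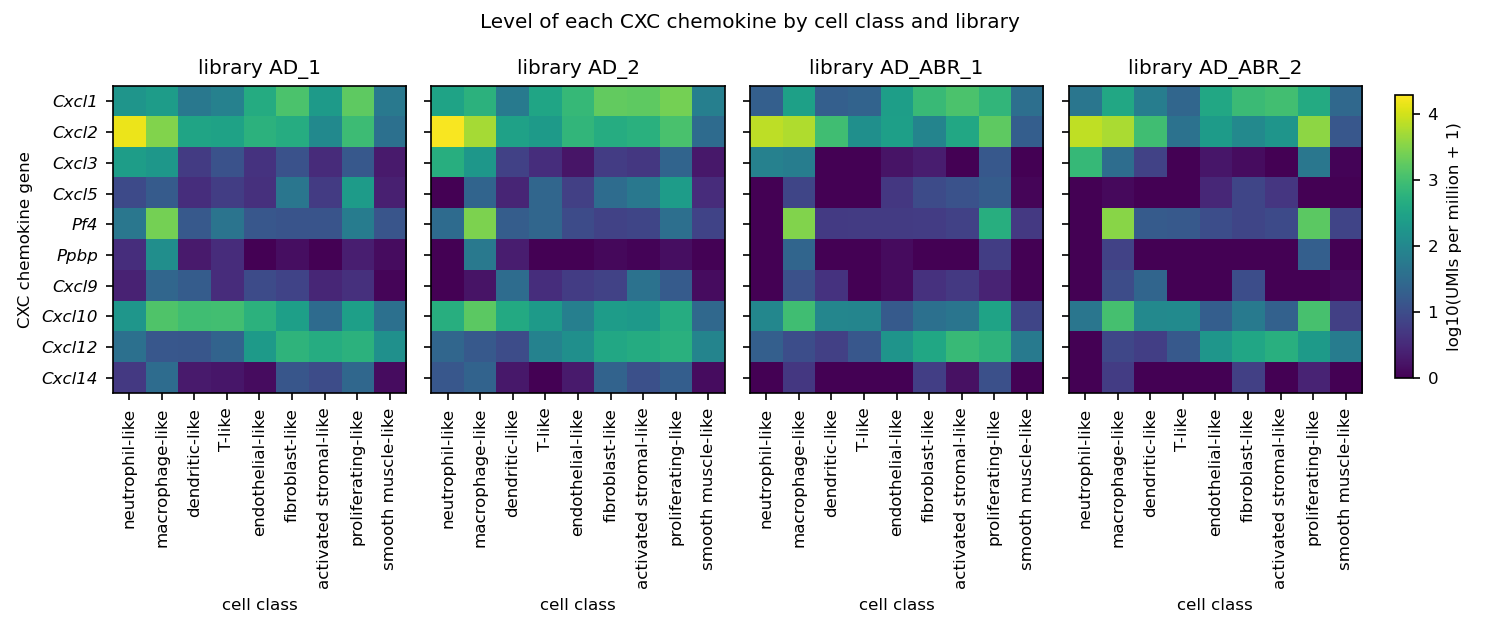
Level of each CXC chemokine (rows) in 9 cell classes (columns) of the 4 libraries, as log10(CPM + 1). Cxcl2 is brightest in neutrophil-like and macrophage-like cells. Pf4 and Ppbp are brightest in macrophage-like cells, except Ppbp in AD_ABR replicate 2, which is brightest in proliferating-like cells. Cxcl1 is brightest in proliferating-like cells in AD and in activated stromal-like cells in AD_ABR. Cxcl12 is bright in fibroblast-like, activated stromal-like and proliferating-like cells.

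The members divided by source. Macrophage-like cells held 89.8 to 93.6% of Pf4 UMIs and 62.9 to 96.3% of Ppbp UMIs of a library. Fibroblast-like cells held 30.7 and 36.0% of Cxcl1 UMIs in AD and 75.5 and 80.8% in AD_ABR. In AD another 55.8 and 43.3% of Cxcl1 came from the deep proliferating-like class, against 2.62 and 1.31% in AD_ABR. The proliferating-like share of Cxcl5 UMIs was 81.1 and 76.0% in AD, against 6.33 and 0% in AD_ABR. For Cxcl14 it was 44.7 and 32.9%, against 6.45 and 0.813%. The highest Cxcl2 level was in neutrophil-like cells, at 15198 and 17918 CPM in AD and 7553 and 7781 CPM in AD_ABR, the last values resting on 21 and 10 cells. Neutrophil-like cells were too few in AD_ABR for a test.

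Over all kept cells, the test called 3 of the 10 members, all lower in AD_ABR, where 2.4% of all genes tested were called lower. Cxcl5, a neutrophil attractant of stromal and epithelial cells, was at 72.9 and 74.3 CPM in AD and 3.71 and 3.17 CPM in AD_ABR (log2 fold change -4.32 ± 0.14 SE, adjusted p = 0.0088). Cxcl3 was at 45.6 and 23.2 CPM against 3.30 and 3.69 CPM (-3.18 ± 0.34, adjusted p = 0.0272). Cxcl14, a chemokine of fibroblasts and epithelium, was at 15.1 and 12.9 CPM against 2.18 and 2.85 CPM (-2.37 ± 0.20, adjusted p = 0.0189). No AD_ABR library reached an AD library in these 3 genes. Most Cxcl5 UMIs of AD lay in the proliferating-like class, which made up a smaller share of AD_ABR libraries. All 3 calls were lost when either AD_ABR library was left out (adjusted p from 0.144 to 0.246), and DESeq2 called 9 of the 10.

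Because the class shares differ, the level over all cells was recomputed with each library's own levels in 26 shared clusters and the cluster shares of the other group. Cxcl2 in AD_ABR was then 976 and 988 CPM in place of 336 and 555, beside 1462 and 932 CPM in AD. Cxcl5 in AD_ABR was 9.40 and 2.28 CPM with the AD shares, and AD stood at 73.7 and 74.3 CPM. Cxcl3 in AD_ABR was 11.7 and 23.3 CPM in place of 3.31 and 3.70, beside 45.9 and 23.2 CPM in AD. Cxcl14 was 3.75 and 2.64 CPM, against 15.3 and 12.9 CPM in AD. Cxcl10 was 112 and 168 CPM, against 436 and 335 CPM in AD. Cluster 26, found only in AD replicate 1 (47 cells), was not among the shared clusters. It held 6.87% of the Cxcl10 UMIs of that library, at 5076 CPM. With it, Cxcl10 over all kept cells of AD replicate 1 was at 476 CPM. With the shares exchanged, the AD_ABR values of Cxcl2 and that of Cxcl3 in AD_ABR replicate 2 lay within the range of AD, and those of Cxcl5, Cxcl10 and Cxcl14 stayed below it. These AD_ABR values give more weight to neutrophil-like cells and to proliferating-like cluster 10, which have larger shares in AD. In AD_ABR their levels were measured on only 21 and 10 and on 40 and 37 cells. In the reverse exchange, AD libraries with the AD_ABR shares stood at 18.4 and 15.9 CPM for Cxcl5, 13.1 and 8.13 CPM for Cxcl3 and 5.19 and 7.71 CPM for Cxcl14.

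**Figure D2:**
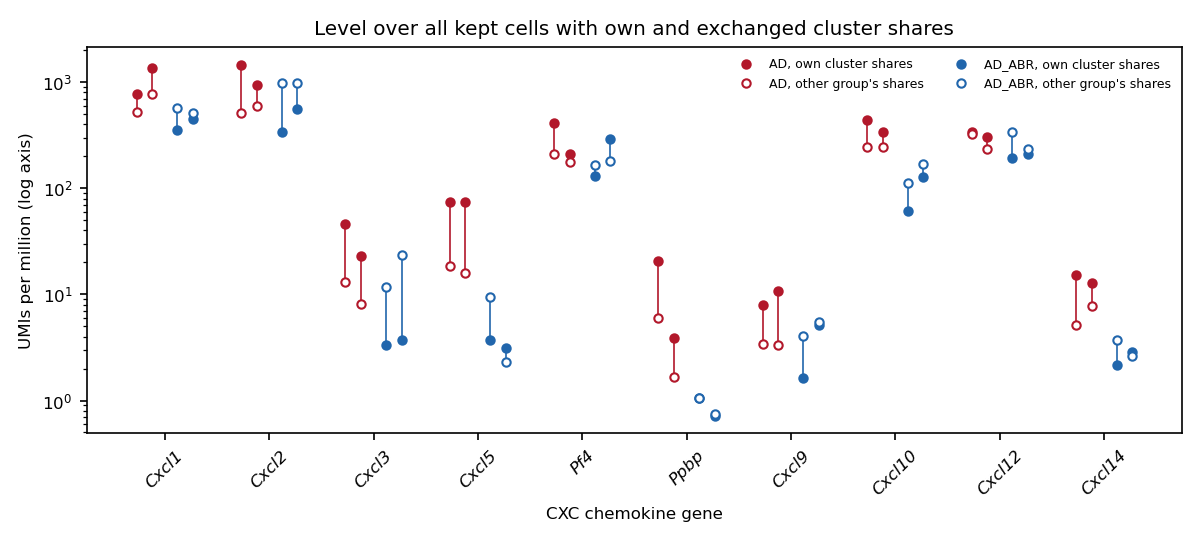
Level over all kept cells of the 26 shared clusters (log axis) of each member, 1 line per library. Filled points use the library's own cluster shares and open points the other group's shares. The AD_ABR points of Cxcl2 rise to 976 and 988, while those of Cxcl5 stay at or below 9.40. The neutrophil-like levels of AD_ABR used here come from 21 and 10 cells.

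Fibroblast-like cells had 4 of 9 tested members lower in AD_ABR and none higher, where 1.86% of all genes were called lower. The makeup of the class by cluster differed between the groups: cluster 3 made up 7.02 and 14.6% of it in AD and 36.0 and 31.4% in AD_ABR, and cluster 5 25.1 and 32.2% against 8.98 and 17.5%. Cxcl2 was at 453 and 464 CPM in AD and 87.7 and 105 CPM in AD_ABR, without overlap (-2.21 ± 0.14, adjusted p = 0.0012). A Cxcl2 UMI was present in 44.6 and 37.3% of fibroblast-like cells from AD, against 14.04 and 15.6% from AD_ABR. T-like cells, which are no known main source of this gene, gave 24.2 and 17.4% and then 8.70 and 6.54%, at median depths of 2211 to 4232 UMIs against 7805 to 9366. After thinning each cell to 1000 UMIs, which left out 53 fibroblast-like and 43 T-like cells, the fibroblast-like shares were 17.3, 16.6, 3.87 and 3.91% and the T-like shares 13.6, 6.07, 4.35 and 0.935% (AD replicates 1 and 2, then AD_ABR replicates 1 and 2). Cxcl2 was also lower in each of the fibroblast-like clusters 2, 4 and 5 alone, and in cluster 3 it was -2.96 with adjusted p = 0.143.

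Cxcl10 was at 263 and 235 CPM in AD fibroblast-like cells and 37.4 and 58.7 CPM in AD_ABR (-2.33 ± 0.22, adjusted p = 0.0104). It fell in all 4 fibroblast-like clusters tested alone, where 0.946% (cluster 2), 0.869% (cluster 3), 0.162% (cluster 4) and 0.0715% (cluster 5) of all genes were called lower. The call was lost without AD replicate 1 (adjusted p = 0.133) or AD replicate 2 (adjusted p = 0.0672). A Cxcl10 UMI was present in 35.5 and 29.1% of fibroblast-like cells from AD, against 9.75 and 9.96% from AD_ABR. T-like cells can make Cxcl10 themselves (34.5 and 21.1% and then 10.9 and 14.02% of cells), so their share gives no background for this gene. The call held with the free UMIs of macrophage-like cells, the source used, subtracted. In AD replicate 1 the unnamed cluster 26, not used as the source, was higher (5076 against 1292 CPM).

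Cxcl5 was at 47.8 and 32.1 CPM in AD and 8.51 and 6.88 CPM in AD_ABR fibroblast-like cells (-2.33 ± 0.21, adjusted p = 0.0069). After the UMIs expected as free RNA of a source class were subtracted, the value was 0.46 (adjusted p = 0.912). The source was pericyte-like in AD and activated stromal-like or mesothelial-like in AD_ABR. It held 33 and 139 Cxcl5 UMIs in AD and 19 and 2 in AD_ABR, with 75.8% of the 33 from 1 cell. Proliferating-like cells, not used as the source, were higher in AD replicate 1 (230 against 157 CPM) and AD_ABR replicate 1 (16.9 against 11.2 CPM). They were lower in replicate 2 of each group. In clusters 2, 3, 4 and 5 alone the Cxcl5 values were -1.99, -2.03, -2.09 and -1.63, and none passed (adjusted p from 0.0683 to 0.372). Cxcl14 was at 12.97 and 22.5 CPM against 5.19 and 5.54 CPM (-1.71 ± 0.28, adjusted p = 0.0412), a call lost without AD_ABR replicate 1 (0.119) or AD_ABR replicate 2 (0.0840). In the 3 clusters where Cxcl14 was tested alone it did not pass, at -0.53 (cluster 2, adjusted p = 0.695), -1.28 (cluster 4, 0.325) and -1.09 (cluster 5, 0.408). Cxcl1, the most abundant member here, was at 1198 and 1848 CPM against 820 and 860 CPM and did not pass (-0.83 ± 0.22, adjusted p = 0.0927). Cxcl12 did not pass either, at 617 and 372 CPM against 359 and 352 CPM (adjusted p = 0.293).

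**Figure D3:**
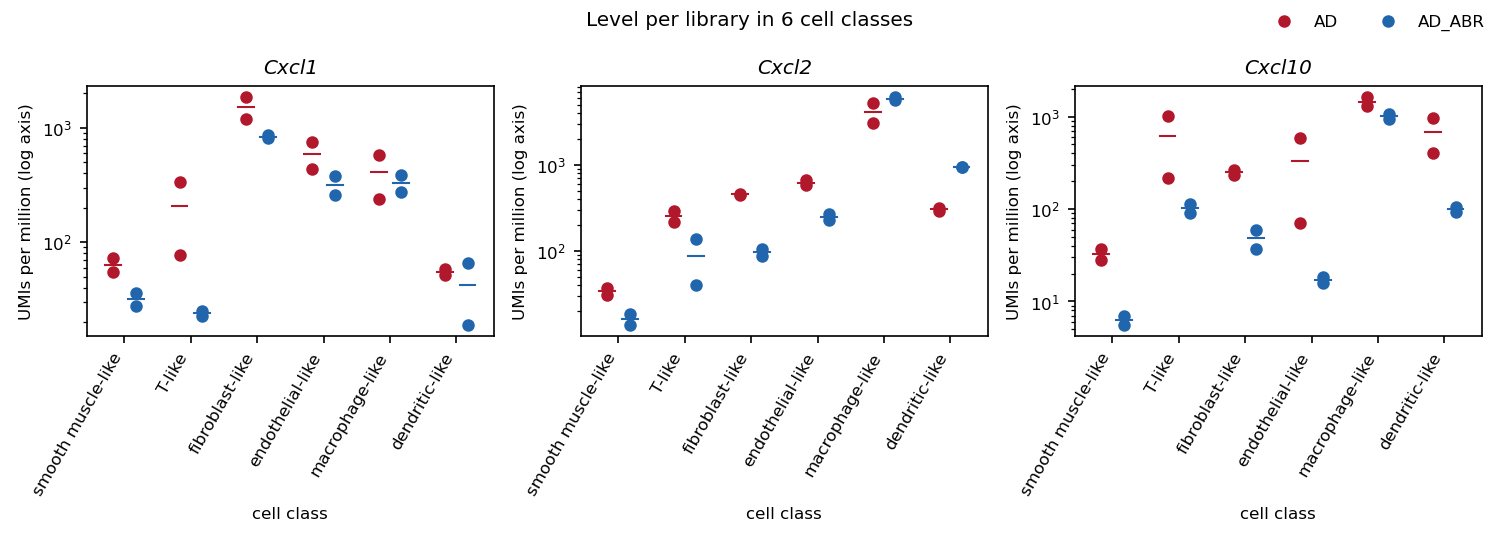
Level in CPM of Cxcl1, Cxcl2 and Cxcl10 in 6 cell classes (log axis), 1 point per library with the group mean as a line. Cxcl2 lies lower in AD_ABR in fibroblast-like and endothelial-like cells and higher in dendritic-like cells.

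Endothelial-like cells had 2 of 7 tested members lower, where 5.57% of all genes were called lower. Cxcl2 was at 581 and 668 CPM in AD and 268 and 227 CPM in AD_ABR (-1.37 ± 0.16, adjusted p = 0.00041), and it passed under all 12 alternatives run for this result. Cells with a Cxcl2 UMI made up 52.9 and 49.9% of the class in AD, against 36.9 and 30.7% in AD_ABR, above the T-like shares in all 4 libraries, and thinned to 1000 UMIs 25.2 and 26.5% against 11.7 and 13.6%. Cxcl9 had 23 and 19 UMIs in AD and 1 and 0 in AD_ABR (adjusted p = 0.005), and the coarser clustering gave adjusted p = 0.265. The AD UMIs came from 6 of 327 and 4 of 545 cells, with 34.8 and 52.6% of them from 1 cell. Cxcl10 was at 586 CPM in AD replicate 1 and 69.8 CPM in AD replicate 2, so the AD libraries differed widely, and it did not pass (adjusted p = 0.33).

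Smooth muscle-like cells had 6 of 7 tested members lower, where 8.93% of all genes were called lower. Their levels were low. Cxcl2 was at 37.2 and 30.7 CPM in AD and 18.6 and 13.9 CPM in AD_ABR (-0.97 ± 0.14, adjusted p = 0.00046). These levels were 0.171 to 0.246% of the neutrophil-like level of the same library. The share of cells with a Cxcl2 UMI was 25.8, 17.01, 8.16 and 10.4% over AD replicates 1 and 2 and AD_ABR replicates 1 and 2. T-like cells gave 24.2, 17.4, 8.70 and 6.54%, and the share is therefore read as background. With the free UMIs subtracted the value was -0.38 (adjusted p = 0.56).

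Cxcl10 in smooth muscle-like cells was at 37.3 and 27.8 CPM in AD and 7.05 and 5.58 CPM in AD_ABR (-2.26 ± 0.16, adjusted p = 1.24e-06). The share of cells with a UMI was 16.2 and 10.3% and then 3.90 and 3.77%. The call held in all 15 settings run, also with the free UMIs of macrophage-like cells subtracted. Thinned to 1000 UMIs, the Cxcl10 shares were 3.01 and 2.39% and then 0.830 and 0.725%. Level and unthinned share were at or below those of T-like cells, which can make Cxcl10, in 4 of 4 libraries. B-like cells had more Cxcl10 in AD, at 72.3 and 58.5 CPM, and 0 and 8.80 CPM in AD_ABR, on 0 and 1 UMIs. Cxcl12 had a share of 32.2 to 45.8%, against 2.80 to 6.88% in T-like cells, at median depths of 7534 to 10533 and 2211 to 4232 UMIs. After thinning to 1000 UMIs, which left out 264 smooth muscle-like cells, the Cxcl12 shares were 10.8, 7.87, 4.95 and 5.11% against 1.91, 3.74, 4.35 and 0.935%, in the same library order. Its level was 141 and 85.9 CPM in AD and 59.3 and 63.1 CPM in AD_ABR (-0.80 ± 0.18, adjusted p = 0.0194). Cxcl1 was at 54.7 and 72.1 CPM against 35.7 and 27.4 CPM (-0.95 ± 0.16, adjusted p = 0.0031). Its share of cells was 28.1, 33.0, 17.1 and 15.6%, and T-like cells gave 17.03, 19.3, 8.70 and 9.35%. Thinned, the Cxcl1 shares were 4.95, 7.52, 3.13 and 2.28% against 5.49, 12.1, 2.17 and 4.67%, below the T-like share in 3 of 4 libraries, and are read as background there. Cxcl3 and Cxcl5 passed on 1 to 40 UMIs per library.

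Macrophage-like cells had 2 of 10 members lower, where 4.33% of all genes were called lower. Their makeup by cluster differed between the groups: cluster 13 made up 4.03 and 24.2% of the class in AD against 67.3 and 68.6% in AD_ABR, and cluster 14 made up 53.4% in AD replicate 1 and 3.58 to 7.61% in the other libraries. Cxcl3 was at 191 and 191 CPM in AD and 66.5 and 33.1 CPM in AD_ABR (-2.01 ± 0.32, adjusted p = 0.0223), a call lost without AD replicate 1 (0.345), without AD replicate 2 (0.272) or without doublet removal (0.0937). Cxcl3 passed in cluster 7 alone (-1.56, adjusted p = 0.0285) and not in cluster 13 alone (-0.12, adjusted p = 0.936). Cxcl14 was at 32.5 and 22.7 CPM against 3.91 and 4.79 CPM (-2.68 ± 0.27, adjusted p = 0.0016), and it passed under all 13 alternatives run. In cluster 7 alone Cxcl14 was at -1.88 (adjusted p = 0.0122), and in cluster 13 alone it was not tested. Cxcl2 was at 3068 and 5259 CPM in AD and 6131 and 5654 CPM in AD_ABR, and did not pass (0.47 ± 0.24, adjusted p = 0.275). Cxcl10 was at 1292 and 1616 CPM against 949 and 1080 CPM (-0.55 ± 0.16, adjusted p = 0.0759).

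Pf4 fell in one macrophage-like cluster and rose in another. Cluster 7, led by Arg1 and Trem2, and cluster 13, led by Folr2 and Cd163, differ in size between groups: 772 and 664 cells in AD against 130 and 268 in AD_ABR for cluster 7, and 73 and 235 against 301 and 666 for cluster 13. Ppbp, Cxcl3 and Pf4 were among the 10 leading genes of cluster 7, although none was used in clustering. In cluster 7, Pf4 was at 4088 and 2893 CPM in AD and 1073 and 866 CPM in AD_ABR (-1.84 ± 0.21, adjusted p = 0.0011, 2.43% of all genes called lower). In cluster 13 it was at 2897 and 2917 CPM against 4289 and 5020 CPM (0.68 ± 0.17, adjusted p = 0.0327, 4.24% of all genes called in either direction). The response differed by 2.50 ± 0.23 between the clusters (adjusted p = 0.00055, 1.57% of all genes called) and passed in all 5 alternatives run, while over the class Pf4 did not pass (0.25, adjusted p = 0.357).

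Ppbp was at 248 and 68.6 CPM in AD and 7.23 and 6.09 CPM in AD_ABR in cluster 7, and at 9.18 and 3.18 CPM against 34.8 and 6.11 CPM in cluster 13. The response differed by 5.84 ± 0.60 (adjusted p = 0.00047), although neither cluster passed alone (adjusted p = 0.156 and 0.729). In cluster 13 of AD_ABR replicate 1, 1 cell held 45.1% of the 71 Ppbp UMIs. The 9 platelet and megakaryocyte genes together gave 63, 19, 19 and 51 UMIs in macrophage-like cells, against 25475, 17108, 10118 and 22617 Pf4 UMIs, with Gp9 at 2, 0, 0 and 0. Their part in the result was not tested.

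**Figure D4:**
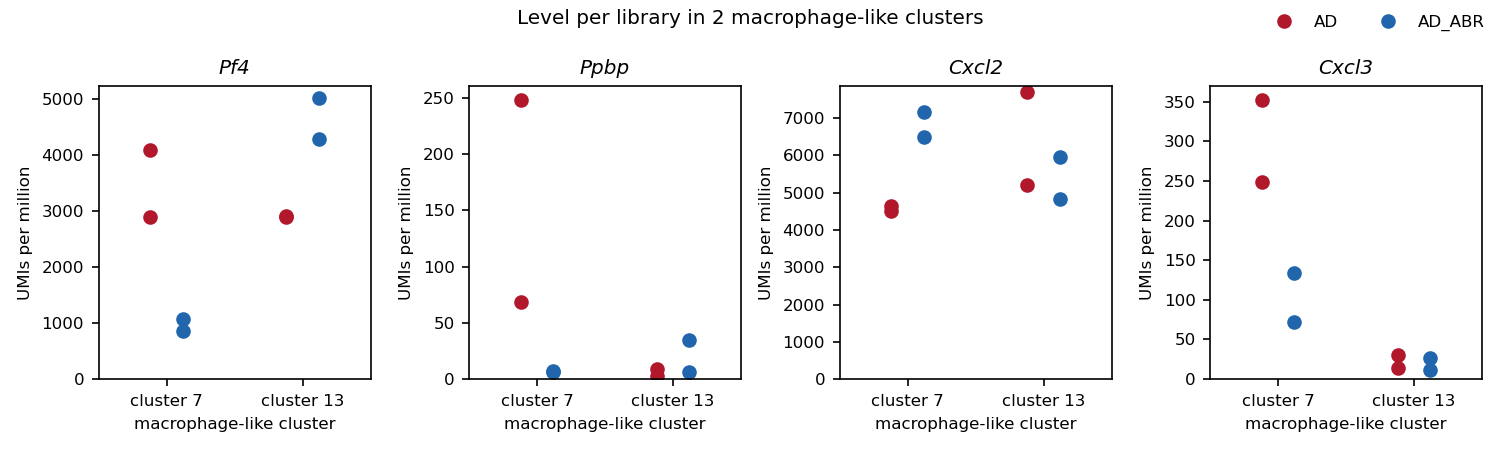
Level in CPM of Pf4, Ppbp, Cxcl2 and Cxcl3 in macrophage-like clusters 7 and 13, 1 point per library. Pf4 lies lower in AD_ABR in cluster 7 and higher in cluster 13.

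Dendritic-like cells had 1 of 7 tested members called, where 0.741% of all genes were called higher. Cxcl2 was at 319 and 292 CPM in AD and 943 and 941 CPM in AD_ABR (1.52 ± 0.17, adjusted p = 0.00031). The call was lost without doublet removal (0.31, adjusted p = 0.866) and at a coarser clustering (0.94, adjusted p = 0.594). The sums came from 610, 560, 98 and 164 cells. In AD_ABR, 1 cell held 27.7 and 20.95% of the Cxcl2 UMIs of the class, against 8.71 and 10.2% in AD. A Cxcl2 UMI was present in 40.7 and 31.8% of dendritic-like cells from AD and in 34.7 and 37.8% from AD_ABR, so these shares overlapped. After thinning, the AD_ABR shares were above the AD shares.

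Cluster 9, without a class name, had 2 of 5 members lower (0.206% of all genes called lower) and cluster 15, also unnamed, had 3 of 5 (0.723%). Cxcl2 fell by 2.57 ± 0.22 on the log2 scale in cluster 9 and by 1.62 ± 0.29 in cluster 15, and Cxcl10 by 2.54 ± 0.29 and 2.57 ± 0.36. Over AD replicates 1 and 2 and AD_ABR replicates 1 and 2, Cxcl2 was at 116, 186, 27.7 and 25.1 CPM in cluster 9. In cluster 15 it was at 47.1, 27.3, 10.7 and 12.9 CPM, near the smooth muscle-like levels read as background. T-like cells had 295, 216, 137 and 40.1 CPM, above both clusters in every library. The Cxcl12 call in cluster 15 was lost with library size only (adjusted p = 0.0791) or with free UMIs subtracted (adjusted p = 0.386). The proliferating-like class had 2 of 10 members lower (Cxcl1, Cxcl5) and 2 higher (Pf4, Ppbp), where 3.07% of all genes were called lower and 5.74% higher. It comprised 610 and 857 AD cells against 54 and 75 AD_ABR cells, and its mix of lineages differed between the groups. The Ppbp call rests on 22 and 9 UMIs in AD and 6 and 23 in AD_ABR, with 56.5% of the 23 from 1 cell. In AD_ABR replicate 1, 1 cell held 35.2% of the 582 Pf4 UMIs. Of 12 settings run, the call held in 10 for Cxcl1, 6 for Cxcl5, 7 for Pf4 and 8 for Ppbp. All of these calls were lost at the coarser clustering (adjusted p from 0.147 to 0.222). The activated stromal-like class had no member called of 7, where 0.1% of genes were.

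Differences of the response between classes were tested directly with a class by group term. In fibroblast-like against smooth muscle-like cells 1 of 9 members passed (5.17% of all genes), in endothelial-like against smooth muscle-like cells 2 of 7 (4.13%), in macrophage-like against smooth muscle-like cells 1 of 10 (5.7%), and in fibroblast-like against endothelial-like cells 2 of 9 (1.68%). Cxcl2 fell further in fibroblast-like than in endothelial-like cells, by 0.87 ± 0.17 on the log2 scale (adjusted p = 0.0255). Without AD_ABR replicate 1 that difference had adjusted p = 0.386, and without AD_ABR replicate 2 0.0650. Each of these 6 calls was lost when at least 1 library was left out.

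**Figure D5:**
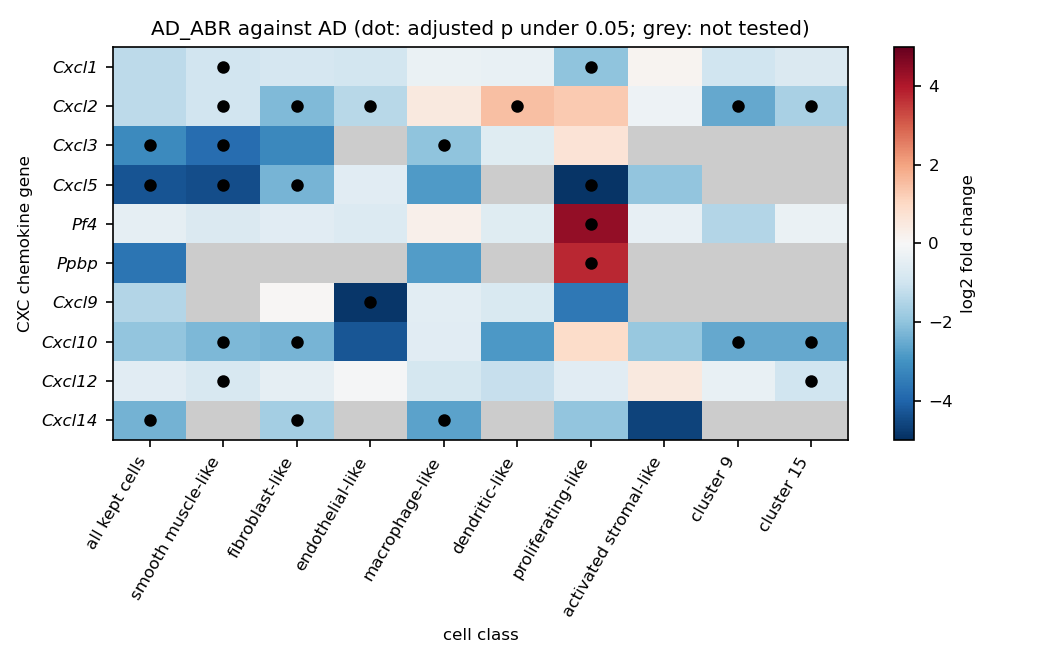
Log2 fold change of AD_ABR against AD for each member (rows) and class (columns), with a dot where the adjusted p was under 0.05 and grey where the gene was not tested. Dots lie on blue (lower) cells except Cxcl2 in dendritic-like cells and Pf4 and Ppbp in proliferating-like cells.

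Genes of related pathways were counted from lists. All genes called lower made up 5.57% in endothelial-like, 8.93% in smooth muscle-like, 1.86% in fibroblast-like and 4.33% in macrophage-like cells, where 4.05% were called higher. Of 12 NF-kB subunit and feedback genes, 11 were lower in endothelial-like cells, 8 in smooth muscle-like, 7 in fibroblast-like and 3 in macrophage-like cells, and none was higher. Tnfaip3, an NF-kB target that limits its own pathway, was at 169 and 117 CPM in AD and 34.3 and 22.8 CPM in AD_ABR in endothelial-like cells (-2.35 ± 0.24, adjusted p = 0.00037). Nfkbiz, an atypical IkB protein, was at 924 and 722 CPM against 275 and 204 CPM there. In fibroblast-like cells Tnfaip3 was at 180 and 129 CPM against 47.3 and 41.5 CPM (-1.76 ± 0.16, adjusted p = 0.0069).

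Of 13 interferon-response genes, 5 were lower in smooth muscle-like cells (8.93% of all genes), 1 in endothelial-like cells (5.57%) and none in fibroblast-like cells (1.86%). In macrophage-like cells 3 were lower (4.33% of all genes) and 3 higher (4.05%): Rsad2, an antiviral enzyme, was at 442 and 430 CPM against 201 and 174 CPM, whereas the guanylate-binding gene Gbp2 was at 10.6 and 14.6 CPM against 35.8 and 43.6 CPM. Of 12 inducing cytokine and receptor genes, 10 or 11 were tested in each class. Of these, 4 were lower in smooth muscle-like (8.93% of all genes), 5 in fibroblast-like (1.86%), 2 in endothelial-like (5.57%) and 2 in macrophage-like cells (4.33%). Il6 in endothelial-like cells was at 57.0 and 41.9 CPM in AD and 7.51 and 3.15 CPM in AD_ABR (-3.21 ± 0.33, adjusted p = 0.00032). Among receptors, Ackr1, a scavenger of chemokines on venular endothelium, was at 59.2 and 45.3 CPM against 6.08 and 0.787 CPM (adjusted p = 0.0097) in endothelial-like cells, and Ackr3, a scavenger of Cxcl12, at 206 and 221 CPM against 315 and 336 CPM (adjusted p = 0.0369).

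Across 51 sums of library and class (16 classes, 11179 genes), the genes most alike in level to each member were described by Pearson's r on the log scale. Il6 was the most alike to Cxcl1 (0.82), Clec4d to Cxcl3 (0.86), C3ar1 to Pf4 (0.93), Rsad2 to Cxcl10 (0.85) and Fkbp11 to Cxcl12 (0.95). The sums share libraries and depth, so these values are a description.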

How the data were processed

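Droplet single-cell RNA sequencing was done on ascending aorta in 4 libraries. The authors deposited integer matrices of raw UMI counts by gene and barcode, per the file headers. The submitters' processing notes name STAR, Cell Ranger 6.0, Seurat 4.0 and GRCm38, but the file headers give cellranger 7.1.0.

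Barcodes with at least 200 genes and under 20% mitochondrial UMIs were kept, and the highest Scrublet scores were removed at 0.8% per 1000 barcodes (665 to 934 per library). The caller's own threshold marked 1 barcode in AD replicate 1, so it was not used. The 2000 most variable genes without the CXC chemokines, 30 principal components and 15 neighbours gave Leiden clusters at resolution 1.0 (scanpy 1.11.5, leidenalg 0.10.2). A class name needed 3 markers in 10% of cells with a mean log2 fold of 1. UMIs were summed per library and class and tested with edgeR 4.0.16 (TMM, low-count filter, adjusted p under 0.05), and DESeq2 1.42.0 was an alternative. Differences of response between classes were fitted as class by group terms. Expected free RNA was set by the markers of the source class. The fitting code was checked on simulated data.

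The members and lists were chosen with earlier results of these data known. All 10 members are named, and other list genes only where they passed, at most 4 per list and class by adjusted p. Replicate numbers do not mark shared mice in the labels. Intervals and floors cover counting error only.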

Additional observations from a re-analysis of the deposited data

Results flagged for a closer look

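For 10 pairings of cell classes or clusters, the difference between AD_ABR and AD libraries was called unlike. The call came from a class by group term in edgeR's quasi-likelihood test with Benjamini-Hochberg adjustment over all genes. Values are differences of log2 fold changes, on 2 libraries against 2. Cxcl2 differed by -1.27 in fibroblast-like against smooth muscle-like cells (adjusted p = 0.0458, 5.17% of genes called) and by -0.87 against endothelial-like cells (adjusted p = 0.0255, 1.68%). The smooth muscle-like level of Cxcl2 is read as background, so the first difference compares a fall with a background level. Cxcl5 differed by 3.83 (adjusted p = 0.0171) and Cxcl12 by 0.74 (adjusted p = 0.0068) in endothelial-like against smooth muscle-like cells, where 4.13% of genes were called. The Cxcl5 value rests on 8, 21, 11 and 5 endothelial-like and 11, 40, 5 and 1 smooth muscle-like UMIs (AD, then AD_ABR). In AD_ABR replicate 1, 1 cell held 90.9% of the 11 endothelial-like UMIs. Cxcl10 differed by 1.71 in macrophage-like against smooth muscle-like cells (adjusted p = 0.0148, 5.70%). The smooth muscle-like level of Cxcl10 was at or below that of T-like cells, which can make Cxcl10, in 4 of 4 libraries. Cxcl9 differed by 5.04 in fibroblast-like against endothelial-like cells (adjusted p = 0.0178), on 23, 19, 1 and 0 endothelial-like UMIs.

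Between macrophage-like clusters 13 and 7, where 1.57% of genes were called, Pf4 differed by 2.50 (adjusted p = 0.00055), Ppbp by 5.84 (adjusted p = 0.00047), Cxcl3 by 1.38 (adjusted p = 0.0278) and Cxcl9 by -6.88 (adjusted p = 0.0338). The Cxcl9 value rests on few cells: in cluster 7, 1 cell held 68.8% of the 32 UMIs of AD_ABR replicate 1 and 89.6% of the 48 UMIs of AD_ABR replicate 2, and without AD replicate 1 the value was 0.83. The comparison of clusters was chosen after seeing the data. Of the 10 differences, those of Pf4 and Ppbp passed under all 5 alternatives run for them.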

How the results depend on the processing

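Of the values of single members recomputed under alternatives, 888 kept their direction and their side of the threshold, 110 newly passed, 65 no longer passed and 59 changed sign; unless a value or the alternative itself shows it, the cause was not tested. DESeq2 called 9 members over all kept cells, 2 in dendritic-like cells and 1 of the 2 with an adjusted p in cluster 15. Without the low-count filter 7 members passed in fibroblast-like, 4 in macrophage-like, 2 in dendritic-like and 1 in activated stromal-like cells. The labels do not pair the samples by replicate number. Correlations of deviations ran from -0.070 to 0.18 over the fits, and 2 pairs are too few to tell whether replicate numbers share a batch. With the replicate block 5 members passed in macrophage-like and 1 in activated stromal-like cells. Cxcl2 in activated stromal-like cells was then at 0.062, Cxcl9 in fibroblast-like cells at -0.048 and Cxcl9 in macrophage-like cells at 0.22. With the block the smooth muscle-like calls of Cxcl1 (adjusted p = 0.0994) and Cxcl12 (adjusted p = 0.102) were lost. Without doublet removal 0 members passed in dendritic-like cells (edgeR), and Cxcl9 in fibroblast-like cells was -0.15. At Leiden resolution 0.5, 2 members passed in dendritic-like, 1 in endothelial-like and 0 in proliferating-like cells (edgeR), with Cxcl12 at 0.033 in endothelial-like and 0.078 in proliferating-like cells. With the free UMIs subtracted, 2 of 3 members still tested passed in smooth muscle-like and 1 of 4 in endothelial-like cells, and the values were 4.46 for Cxcl1 and 0.19 for Cxcl12 in cluster 9 and 0.46 for Cxcl5 in fibroblast-like cells. Clustering with the CXC genes gave 0.050 for Cxcl1 in dendritic-like and -0.42 for Cxcl9 in fibroblast-like cells. With library size only, the Cxcl12 difference between macrophage-like and smooth muscle-like cells was 0.029. In single clusters, Cxcl9 was -0.36 in cluster 2 and 4.76 in cluster 7, Pf4 0.21 in cluster 3 and -1.84 in cluster 7, and Cxcl2 -0.27 and Ppbp 1.84 in cluster 13. Thinning to 1000 UMIs moved 26 of 50 differences in shares of cells by more than the spread between libraries.

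Leaving out 1 library at a time, the members called ranged from 0 to 2 in activated stromal-like, 2 to 4 in cluster 9, 2 to 4 in dendritic-like, 2 to 6 in endothelial-like, 3 to 7 in fibroblast-like, 2 to 5 in macrophage-like, 1 to 7 in proliferating-like cells and 0 to 8 over all kept cells. Members whose response differed ranged from 0 to 1 (fibroblast-like minus smooth muscle-like), 0 to 3 (endothelial-like minus smooth muscle-like), 0 to 4 (macrophage-like minus smooth muscle-like) and 0 to 4 (fibroblast-like minus endothelial-like). Log2 values that changed sign ranged in activated stromal-like cells from -0.67 to 2.30 (Cxcl1), -0.97 to 1.32 (Cxcl2), -3.07 to 0.73 (Cxcl5) and -2.67 to 0.15 (Cxcl10). They ranged from -0.87 to 0.17 for Pf4 in cluster 15, -1.65 to 0.20 for Cxcl1 and -6.79 to 0.15 for Cxcl3 in dendritic-like, -0.36 to 0.31 for Cxcl12 in endothelial-like and -0.95 to 0.64 for Cxcl9 in fibroblast-like cells. In macrophage-like cells the ranges were -0.82 to 0.42 (Cxcl1) and -1.41 to 3.80 (Cxcl9), in proliferating-like cells -0.52 to 1.29 (Cxcl3) and -0.34 to 1.52 (Cxcl10), and over all kept cells -1.13 to 0.082 (Pf4). Differences of response ranged, for fibroblast-like minus smooth muscle-like, from -0.10 to 0.34 (Cxcl1), -1.05 to 2.41 (Cxcl3), -0.076 to 1.52 (Cxcl9) and -0.60 to 0.38 (Cxcl10). For endothelial-like minus smooth muscle-like they ranged from -0.43 to 0.46 (Cxcl1), -0.20 to 0.17 (Pf4) and -2.67 to 0.023 (Cxcl10). For macrophage-like minus smooth muscle-like they ranged from -0.63 to 2.20 (Cxcl5), -0.12 to 0.99 (Ppbp), -1.40 to 5.35 (Cxcl9), -0.52 to 0.22 (Cxcl12) and -0.17 to 0.56 (Cxcl14). For fibroblast-like minus endothelial-like they ranged from -0.14 to 0.35 (Cxcl1), -0.070 to 0.48 (Pf4) and -0.21 to 2.67 (Cxcl10), and for cluster 13 minus cluster 7 from -8.24 to 0.83 (Cxcl9), -0.52 to 0.086 (Cxcl10) and -0.75 to 1.34 (Cxcl14).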
